A study of Mus musculus with 2 samples.

Results

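Bile duct spots were the 234 Visium spots, of 4680 that passed filtering, with the highest share of RNA from 4 bile duct epithelial genes. Spatial transcriptomics captures RNA from a tissue section on a grid of barcoded spots, and each spot covers a patch of tissue with more than 1 cell and often more than 1 cell type. For each spot the UMIs (unique molecular identifiers, which count captured probe molecules) of Spp1 (osteopontin), Epcam (an epithelial adhesion molecule), Krt7 and Krt19 (epithelial keratins) were summed and divided by the total UMIs of the spot. The top 5% of spots in each library by this score were taken, which gave 107 of 2140 spots in AEG-1DMAC and 127 of 2540 spots in AEG-1fl/fl. Because these genes chose the spots, their levels are a description and were left out of every comparison that follows.

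Bile ducts carry bile out of the liver and are lined by cholangiocytes, which modify bile by exchanging ions, water and glucose and carry a sensory cilium. Each duct runs through the portal tract beside a branch of the portal vein and of the hepatic artery, inside a collar of collagen-producing fibroblasts, lymphatic vessels and resident immune cells. The hepatocytes next to the tract are called periportal or zone 1, those around the central vein pericentral or zone 3. A capture spot is wider than a small duct, so a spot that covers one also covers its neighbours.

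The sections came from livers of 27-week-old mice. One library, AEG-1DMAC, was from a mouse lacking AEG-1 (gene Mtdh) in myeloid cells, made by crossing floxed AEG-1 mice with mice that express Cre from the lysozyme gene Lyz2. The other, AEG-1fl/fl, was from a floxed littermate without Cre. Each genotype had 1 section and so 1 library, with no replicate, and both sections were mounted on the same slide. The sample labels state HF/HSD (high-fat, high-sugar diet) feeding from 7 weeks of age for both mice, whereas the study's methods describe this assay on control diet-fed littermates, and which of these holds was not settled. The Lyz2 promoter limits the deletion to myeloid cells, so hepatocytes and cholangiocytes of both mice keep AEG-1. No test was possible with 1 library a group. The 95% intervals reflect counting error alone, without the variation from mouse to mouse or section to section. In a spot, fewer cells of a type and less RNA per cell cannot be told apart.

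Bile duct spots had a slightly lower median depth than the rest of their section and a higher upper quartile. The median was 19742 UMIs per bile duct spot and 20995 per remaining spot in AEG-1DMAC, and 17308 and 18350 in AEG-1fl/fl. The upper quartile was 24784 and 24489 UMIs in AEG-1DMAC, and 27936 and 23760 in AEG-1fl/fl. Together the bile duct spots held 2218496 UMIs in AEG-1DMAC and 2747442 in AEG-1fl/fl, so that a level of 10 counts per 1000000 UMIs (CPM) stood for 22 and 27 UMIs. The shallowest bile duct spot had 7903 UMIs in AEG-1DMAC and 985 in AEG-1fl/fl. The kept spots of the libraries shared 1776 barcodes and the bile duct spots 8, because the same grid of barcodes is printed in every capture area.

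The score had a long upper tail and no gap at its limit. In AEG-1DMAC the score ran from 230.9 to 3905 CPM with a median of 565, and in AEG-1fl/fl from 230.5 to 3569 with a median of 423. The last spot inside stood at 230.9 and the first outside at 230.4 in AEG-1DMAC, and at 230.5 and 227.8 in AEG-1fl/fl. A bile duct spot held a median of 12 score UMIs in AEG-1DMAC and 9 in AEG-1fl/fl, and 8 and 18 spots held fewer than 5. Spp1 gave 90.8% and 91.9% of the score UMIs. Epcam was found in 49 of 107 and 50 of 127 bile duct spots, Krt7 in 34 and 27, and Krt19 in 24 and 21. In all, 72 spots in AEG-1DMAC and 76 in AEG-1fl/fl had a UMI of Epcam, Krt7 or Krt19, and the other spots were chosen by Spp1 alone.

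Cholangiocyte genes outside the score were higher in the chosen spots of both sections. A list of 23 further cholangiocyte genes was set, of which 22 are in the files and Krt18 was not analysed here. Summed over the list, bile duct spots held 498 CPM against 182 CPM in the remaining spots of AEG-1DMAC, a log2 ratio of 1.45 (95% interval 1.36 to 1.54). In AEG-1fl/fl the sum was 470.3 CPM against 230.3 CPM, for 1.03 (95% interval 0.95 to 1.11). Of the 14 listed genes with at least 40 UMIs in each library, 12 were at least 2-fold higher in bile duct spots of AEG-1DMAC and 12 in AEG-1fl/fl, where 10.7% and 7.15% of all 11121 genes with that many UMIs were. The median of the 14 log2 ratios was 2.93 and 2.81, beside 0.18 and 0.14 over all those genes. The 8 other genes of the list had fewer UMIs and were not counted, and a gene that reached the minimum through its bile duct UMIs had to be high there, so these counts describe the list.

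The exceptions were Cldn3 and Krt8, a tight junction claudin and a keratin that hepatocytes also make. Cldn3 stood at 93.8 against 85.2 CPM in AEG-1DMAC and 112 against 110.4 CPM in AEG-1fl/fl, bile duct against remaining spots. Krt8 stood at 61.3 against 50.4 CPM and 68.1 against 52.2 CPM. Without these genes the list sum had a log2 ratio of 2.89 in AEG-1DMAC and 2.10 in AEG-1fl/fl, an alternative added after the values were seen. Tspan8, a tetraspanin of epithelial membranes at chr10:115816832-115849893 of mm10, was at 29.3 against 1.11 CPM in AEG-1DMAC, for a log2 ratio of 4.72 (95% interval 4.16 to 5.29), and 18.2 against 1.01 CPM in AEG-1fl/fl, for 4.17 (95% interval 3.57 to 4.78). Prom1, the stem and epithelial cell surface protein prominin 1, was at 25.2 against 1.16 CPM in AEG-1DMAC, for a log2 ratio of 4.45 (95% interval 3.87 to 5.03), and 12.4 against 0.799 CPM in AEG-1fl/fl, for 3.95 (95% interval 3.24 to 4.66). Both genes had a low CPM in the remaining spots of either section, but were not absent there, since those spots hold most of the UMIs.

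Further single genes of duct cells differed in their contrast. Sox9, the transcription factor that marks the biliary lineage, was at 45.5 against 12.2 CPM in AEG-1DMAC, for a log2 ratio of 1.90 (95% interval 1.58 to 2.21), and 56.1 against 24.1 CPM in AEG-1fl/fl, for 1.22 (95% interval 0.96 to 1.46). Its remaining-spot level was not near 0 in either section. Pkhd1, the fibrocystin of the cholangiocyte cilium that is mutated in autosomal recessive polycystic kidney disease, had log2 ratios of 2.84 and 3.04. Bicc1, an RNA-binding protein whose loss gives cystic ducts and tubules, had log2 ratios of 3.52 and 2.86. Slc5a1, the glucose transporter SGLT1, was at 12.2 against 0.763 CPM in AEG-1DMAC and 10.2 against 0.336 CPM in AEG-1fl/fl. Cftr, the chloride channel of cholangiocytes, and Sctr, the secretin receptor, each had 5 or fewer UMIs in the bile duct spots of either library.

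**Figure D1:**
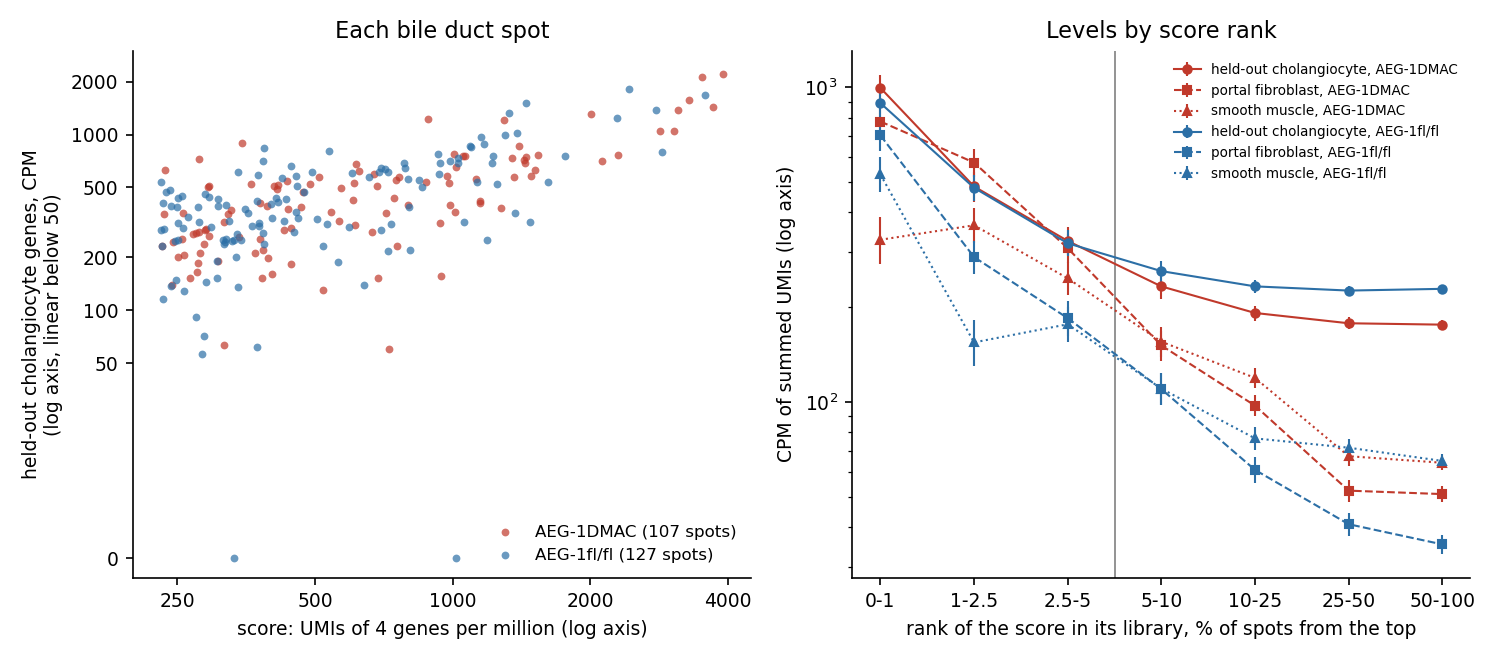
Left, each bile duct spot by its score (x, UMIs of the 4 score genes as CPM, log axis) and its held-out cholangiocyte level (y, CPM, log above 50). Right, the summed CPM of 3 gene lists (log axis, bars are 95% Poisson intervals) by rank of the score in its library, with the bile duct spots left of the grey line. Held-out cholangiocyte RNA fell from 995 CPM in the top 1% of AEG-1DMAC spots and 890.1 CPM in those of AEG-1fl/fl to 233 and 260.4 CPM in the 5% of spots just outside the limit.

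The chosen spots were graded and not uniform. In AEG-1DMAC the held-out cholangiocyte sum was 995 CPM in the top 1% of spots by score (21 spots), 484 CPM in the next 33, 325 CPM in the last 53 of the bile duct spots, and 233 CPM in the 107 spots that followed them. In AEG-1fl/fl it was 890.1, 479, 319 and 260.4 CPM over 25, 39, 63 and 127 spots. The level in the lower-scoring 50% of spots was 176 CPM in AEG-1DMAC and 229 CPM in AEG-1fl/fl. The levels declined across the limit without a step, as the plot of levels by score rank shows. Across bile duct spots the Spearman correlation of the score with the held-out sum was 0.68 over 107 spots and 0.58 over 127, given as a description since both share a spot's total. Per spot, the held-out sum ran from 60.4 to 2210 CPM with a median of 410.5 in AEG-1DMAC, and from 0 to 1805 with a median of 393 in AEG-1fl/fl, where 2 spots had no UMI of the list. The remaining spots had medians of 168 and 217 CPM and a highest spot of 681 CPM in AEG-1DMAC, so that single spots overlapped between the sets. Within the bile duct spots the score also rose with portal fibroblast RNA (Spearman correlation 0.51 and 0.40) and with class II MHC RNA (0.46 and 0.47), and hardly with the total UMIs (-0.07 and -0.08).

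Spots chosen by Spp1 alone held less duct RNA than the others and more than the rest of the section. In AEG-1DMAC the held-out sum was 556 CPM (95% interval 519 to 595) in the 72 spots with a UMI of Epcam, Krt7 or Krt19, and 374 CPM (330.4 to 422) in the 35 with Spp1 alone. In AEG-1fl/fl it was 509 CPM (477 to 542) in 76 spots and 391 CPM (351 to 434) in 51. These compare with 182 and 230.3 CPM in the remaining spots. Of the bile duct spots, 53 of 107 and 50 of 127 were also in the top 5% of their library by the held-out list.

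Across the whole transcriptome, bile duct spots differed from the rest of the section mainly by genes that were higher. Among 7283 genes whose mean reached 10 CPM, 297 (4.08%) were at least 2-fold higher in the bile duct spots of AEG-1DMAC, and 40 (0.549%) were lower by as much. In AEG-1fl/fl 198 (2.72%) were higher and 18 (0.247%) lower. With TMM scaling, which rests on a trimmed mean of the ratios of all genes, the counts were 198 and 73 in AEG-1DMAC and 144 and 35 in AEG-1fl/fl. Of the genes higher, 169 were so in both libraries, which is 56.9% of the AEG-1DMAC list and 85.4% of the AEG-1fl/fl list, and 15 were lower in both. No gene passed 2-fold in opposite directions. The Pearson correlation of the log2 ratios of the libraries was 0.76 over 7283 genes, and genes are no independent replicates of each other. The median gene had a log2 ratio of 0.11 in AEG-1DMAC and 0.10 in AEG-1fl/fl, and TMM scaling moved these to -0.14 and -0.09. TMM lowers each log2 ratio of bile duct over remaining spots by 0.255 in AEG-1DMAC and by 0.191 in AEG-1fl/fl. Positive ratios smaller than these thus have no settled direction, and negative ones keep their sign with TMM. These spots and their counts chose the members, so the profile is a description.

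The 15 leading genes included 4 of the portal fibroblast list, Dpt, Eln, Fbln2 and Mgp, and 2 of the cholangiocyte list, Bicc1 and Tspan8. Lamc3, the gamma 3 chain of basement membrane laminins, was at 26.1 against 1.55 CPM in AEG-1DMAC, for a log2 ratio of 4.08 (95% interval 3.54 to 4.61), and 13.5 against 0.462 CPM in AEG-1fl/fl, for 4.86 (95% interval 4.06 to 5.70). Scara3, a scavenger receptor family member, was at 28.4 against 1.57 CPM and 26.6 against 1.09 CPM. Fmod, fibromodulin, a proteoglycan that binds collagen fibrils, was at 44.2 against 2.36 CPM in AEG-1DMAC and 8.74 against 0.862 CPM in AEG-1fl/fl. These genes were scarce outside the chosen spots of both sections. They reached the mean of 10 CPM through their bile duct levels and were ranked by ratio, so low levels elsewhere came with the choice. Dpep1, a membrane dipeptidase, had log2 ratios of 3.75 and 4.98 in AEG-1DMAC and AEG-1fl/fl, and C7, a terminal complement component made by stromal cells, had 3.89 and 3.85. Dpt (dermatopontin), Mgp (matrix Gla protein), Fbln2 (fibulin 2) and Eln (elastin), all products of portal fibroblasts or vessel walls, lay between 3.02 and 4.10 in both libraries. Tspan8, Bicc1, Emp1, Gsn, Bcam and Rap1gap completed the 15, with log2 ratios from 2.74 to 4.72.

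**Figure D2:**
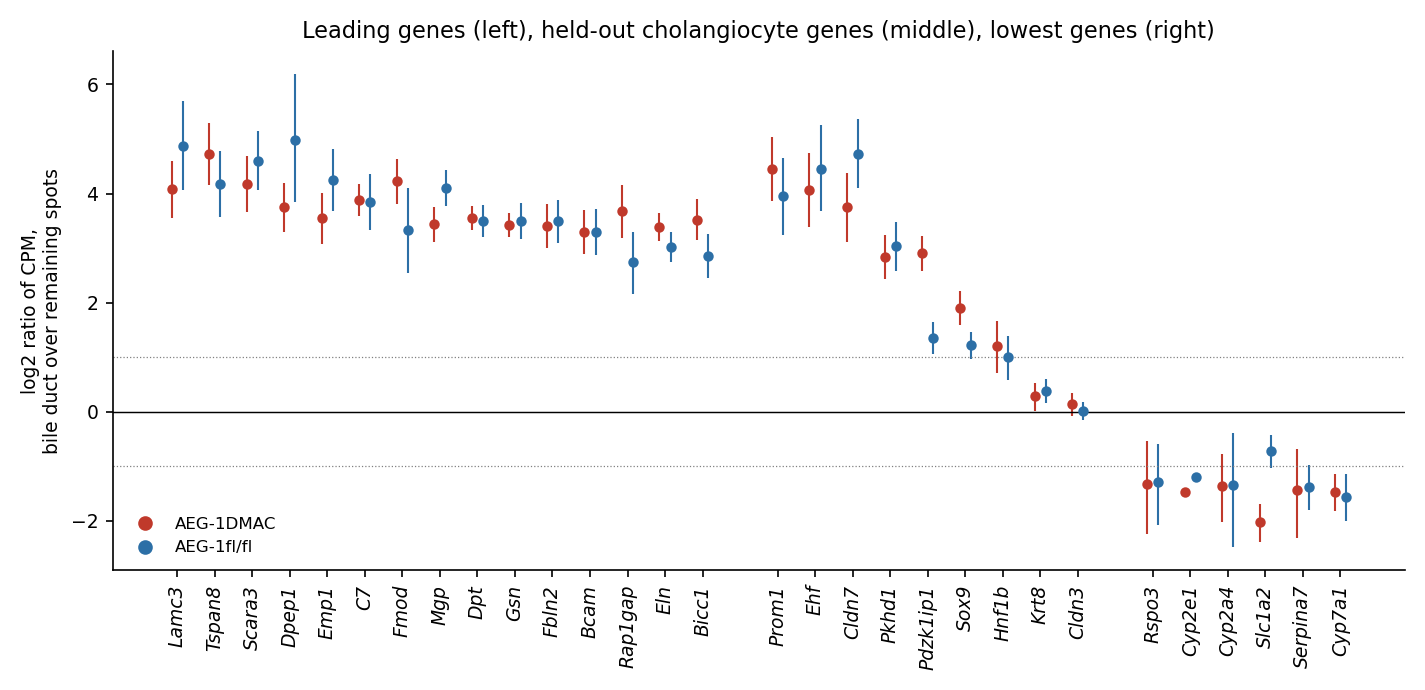
Log2 ratio of CPM, bile duct over remaining spots (y), for the 15 leading genes, 9 held-out cholangiocyte genes and the 6 lowest genes. Red is AEG-1DMAC and blue AEG-1fl/fl, with bars for the 95% counting interval and dotted lines at 2-fold. Leading genes exceed 2 in both libraries, Cldn3 and Krt8 stay near 0, and the lowest genes lie below 0 in both.

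The 6 lowest genes included several of the pericentral lobule. Cyp2e1, the ethanol-metabolising cytochrome P450 of zone 3, was at 2709 against 7497 CPM in AEG-1DMAC, for a log2 ratio of -1.47 (95% interval -1.51 to -1.43), and 1282 against 2931 CPM in AEG-1fl/fl, for -1.19 (95% interval -1.24 to -1.15). Cyp7a1, the rate-limiting enzyme of bile acid synthesis, was at 34.3 against 94.6 CPM and 17.1 against 50.4 CPM. Rspo3, the Wnt amplifier made by central vein endothelium, had log2 ratios of -1.32 and -1.28. Slc1a2, the glutamate transporter of pericentral hepatocytes, had log2 ratios of -2.03 and -0.72, and Serpina7 and Cyp2a4 had ratios from -1.43 to -1.33. The ratios of the lowest genes lay nearer to 0 than those of the leading ones.

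Hepatocyte genes of zone 3 were low in bile duct spots, and those of zone 1 slightly high. Of 7 zone 3 genes measured, 6 were at least 2-fold lower in AEG-1DMAC and 3 in AEG-1fl/fl, against 1.59% and 1.25% of all genes with 40 UMIs in each library, and all 7 lay below 0 in both. The zone 3 sum was 3353 CPM against 9356 CPM in AEG-1DMAC and 1832 CPM against 3983 CPM in AEG-1fl/fl. Zone 1 genes had summed log2 ratios of 0.31 in AEG-1DMAC and 0.28 in AEG-1fl/fl, and 8 of 9 and 6 of 9 lay above the median of all genes. Sds, serine dehydratase of the most periportal hepatocytes, was at 169 against 79.7 CPM and 123 against 66.6 CPM. Hepatocyte RNA was abundant in both sets. Alb, albumin, made up 10.1% and 13.0% of the UMIs of bile duct spots, and 8.73% and 14.3% of those of the remaining spots. Set against the third of remaining spots with the highest zone 1 level, the zone 1 sums were -0.08 and -0.05. The held-out cholangiocyte log2 ratios against those spots were 1.46 and 1.01, close to those against all remaining spots. The zone 3 sums were -0.23 and 0.17, so the direction in AEG-1fl/fl turned.

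Of the 35 lists outside the score, portal fibroblast genes had the highest ratio in each library. Genes of portal fibroblasts had a summed log2 ratio of 2.91 (95% interval 2.80 to 3.01) in AEG-1DMAC and 2.77 (95% interval 2.66 to 2.89) in AEG-1fl/fl, and 12 and 11 of 12 passed 2-fold, where 10.7% and 7.15% of all genes with 40 UMIs in each library did. Smooth muscle genes, which mark artery and vein walls, had 1.93 in AEG-1DMAC and 1.69 in AEG-1fl/fl, with 6 of 8 past 2-fold in each, beside the same shares of all genes. Acta2, smooth muscle actin, was at 54.5 against 5.62 CPM and 30.2 against 3.83 CPM. Of 20 matrix genes, 16 and 12 passed 2-fold higher and 0 lower, where 10.7% and 7.15% of all genes were higher and 1.59% and 1.25% lower. Col1a1, a chain of fibrillar collagen I, was at 121 against 13.8 CPM and 97.2 against 16.8 CPM. Fn1, fibronectin, which hepatocytes secrete, was at 1387 against 1555 CPM and 1270 against 1270 CPM, and it holds most of the list's UMIs. Mesothelial genes of the liver capsule were scarce but higher in the chosen spots of both libraries, at 11.3 against 1.69 CPM in sum in AEG-1DMAC (log2 ratio 2.74, 95% interval 2.02 to 3.41) and 11.6 against 4.71 CPM in AEG-1fl/fl (1.31, 95% interval 0.72 to 1.85). Gpm6a, which neurons also express, gave 18 of the 25 UMIs at the ducts of AEG-1DMAC and 30 of the 32 in AEG-1fl/fl. The defining markers Wt1, Upk3b and Upk1b had 0 UMIs in the bile duct spots of both libraries, which allows up to 1.35 and 1.09 CPM. The mesothelial sum was not particular to the chosen spots. Spots outside them that were in the top 5% for smooth muscle RNA held 9.76 CPM in AEG-1DMAC and 19.2 CPM in AEG-1fl/fl. The part of capsule RNA in the other ratios was not tested.

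Genes of arteries and larger vessels were high and those of sinusoids were not. Gja5 (connexin 40 of arterial endothelium) had log2 ratios of 3.60 and 3.30, and Adgrg6 2.82 and 2.29. Vwf, von Willebrand factor of larger vessels, was at 79.8 against 12.0 CPM in AEG-1DMAC and 17.8 against 9.54 CPM in AEG-1fl/fl. Of 15 vessel endothelium genes, 8 and 6 passed 2-fold higher, where 10.7% and 7.15% of all genes did, and 1 lower, Rspo3, where 1.59% and 1.25% did. Sinusoidal endothelial genes had sums of -0.29 in AEG-1DMAC and -0.24 in AEG-1fl/fl. Among lymphatic genes, Mmrn1 was at 22.5 against 1.60 CPM and 8.37 against 0.715 CPM, while Flt4, which sinusoids share, had log2 ratios of 0.04 and -0.26.

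Signalling genes known from duct formation followed. The ligand Jag1 on portal mesenchyme activates Notch in duct precursors, and YAP is active in duct cells. Of 14 Notch and YAP genes measured, 7 passed 2-fold in each library, where 10.7% and 7.15% of all genes did, and 14 and 12 lay above the median of all genes. Ccn2, a YAP target that fibroblasts also make, was at 75.3 against 12.2 CPM and 33.5 against 6.41 CPM. Jag1 was at 20.7 against 8.70 CPM and 36.4 against 9.44 CPM, and Notch3, a receptor of mural cells, at 9.92 against 1.46 CPM and 13.8 against 1.49 CPM. Yap1 itself had log2 ratios of 0.26 and 0.12, close to the median gene. Genes induced when ducts proliferate after injury had sums of 1.02 in AEG-1DMAC and 1.14 in AEG-1fl/fl, led by Vim, an intermediate filament of stromal cells, at 105 against 26.9 CPM and 96.5 against 32.6 CPM. Ccl20, Cxcl5 and Lif of that list had 0 UMIs in bile duct spots of both libraries. Cilium genes had 3 of 9 past 2-fold in each library, where 10.7% and 7.15% of all genes were, with no member above 11 CPM.

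Transport and receptor genes of bile modification were split. The sum of 17 genes had log2 ratios of 0.02 (95% interval -0.08 to 0.12) and 0.19 (95% interval 0.10 to 0.29), and Aqp1, a water channel that endothelium also carries, held the most UMIs at 175 against 177 CPM and 150.3 against 129.6 CPM. Of the 11 measured, 5 and 4 passed 2-fold, among them Slc5a1, Abcb1a and Itpr3, where 10.7% and 7.15% of all genes did. Muc1, a membrane mucin, was at 15.3 against 0.763 CPM and 9.83 against 0.568 CPM. Pigr, the receptor that carries IgA into bile, which mouse hepatocytes also express, was at 814 against 649 CPM and 628 against 522 CPM. Epithelial junction genes were close to the rest, with sums of 0.38 in AEG-1DMAC and 0.24 in AEG-1fl/fl, and Cdh1, E-cadherin of epithelium and periportal hepatocytes, was the most abundant that passed 2-fold in AEG-1DMAC, at 95.6 against 38.7 CPM.

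Among immune genes, those of antigen presentation were the most abundant that were higher at the ducts. All 7 class II MHC genes passed 2-fold in each library, where 10.7% and 7.15% of all genes did, with sums of 2277 CPM against 751 CPM in AEG-1DMAC, log2 ratio 1.60 (95% interval 1.56 to 1.64), and 1109 CPM against 369 CPM in AEG-1fl/fl, for 1.59 (95% interval 1.53 to 1.64). Cd74, the invariant chain, was the most abundant, and Ciita, the transactivator of the class, had log2 ratios of 2.55 and 2.15. Genes of macrophages other than Kupffer cells had sums of 0.88 in AEG-1DMAC and 0.84 in AEG-1fl/fl, with Ccr2, a monocyte receptor, at 18.5 against 3.28 CPM and 11.6 against 2.29 CPM. T and NK cell genes had 1.56 in AEG-1DMAC and 1.14 in AEG-1fl/fl on low counts, 127 and 64 UMIs. The intervals of the neutrophil and B cell sums included 0 in both libraries.

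**Figure D3:**
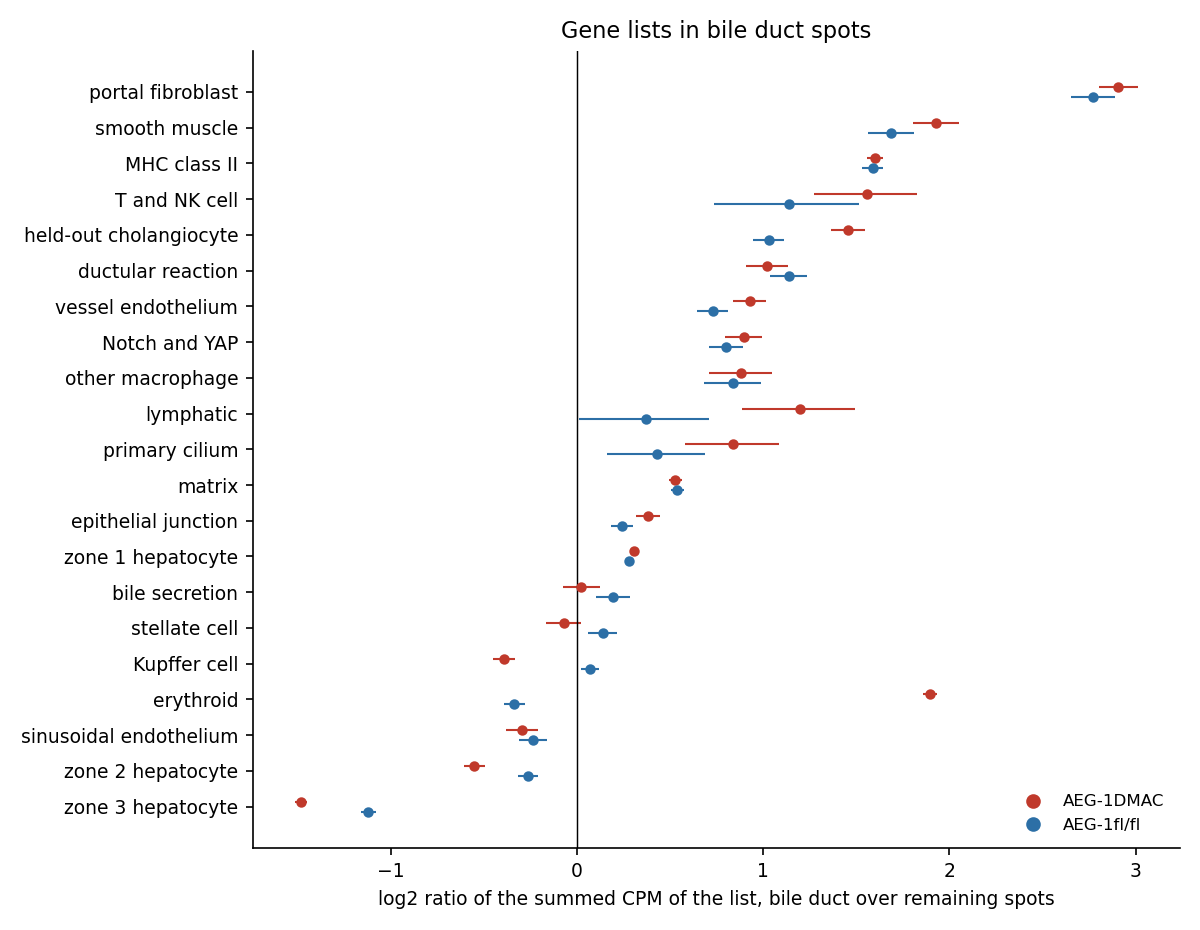
Log2 ratio of the summed CPM of each gene list, bile duct over remaining spots of the same library (x), with 95% counting intervals. Red is AEG-1DMAC and blue AEG-1fl/fl. Portal fibroblast sums stand highest at 2.91 and 2.77, zone 3 sums lowest at -1.48 and -1.12, and the erythroid and Kupffer cell lists lie on opposite sides of 0 in the libraries, although with TMM the Kupffer cell sum of AEG-1fl/fl also falls below 0.

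Many of the chosen spots were also rich in smooth muscle RNA. Of 107 bile duct spots in AEG-1DMAC, 43 (40.2%, exact 95% interval 30.8 to 50.1) were also among the top 5% for 6 smooth muscle genes, and 43 of 127 (33.9%, 25.7 to 42.8) in AEG-1fl/fl. The sets are equal in size, so the shares of the smooth muscle set are the same. Overlap with the top 5% for the periportal genes Sds, Hal and Gls2 was smaller, at 18 spots (16.8%) and 11 spots (8.66%). The sets differed in their duct RNA. In the smooth muscle spots outside the bile duct set, the held-out cholangiocyte sum was 231 and 230 CPM, and the zone 3 sum was 6245 and 4060 CPM, above the 3353 and 1832 CPM of the bile duct spots. Portal fibroblast RNA in those smooth muscle spots was 451 and 152 CPM, class II MHC RNA 1565 and 623 CPM, and erythroid RNA 8207 and 1169 CPM. The bile duct spots held 477 and 308 CPM, 2277 and 1109 CPM, and 3337 and 971 CPM of these lists. In AEG-1DMAC these lists were thus not particular to the bile duct spots. In AEG-1fl/fl the portal fibroblast and class II MHC levels of those smooth muscle spots were below those of the bile duct spots. They were still above the 45.1 and 369 CPM of all remaining spots. Erythroid RNA was not high in either set of AEG-1fl/fl, beside 1227 CPM in all remaining spots. In the periportal spots outside the bile duct set the cholangiocyte sum was 156 and 247 CPM and the portal fibroblast sum 71.6 and 45.3 CPM.

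Held-out duct RNA stayed high without the spots of the smooth muscle set. In the bile duct spots outside the smooth muscle set the held-out sum was 417 CPM (95% interval 383 to 454) in AEG-1DMAC and 430 CPM (401 to 460) in AEG-1fl/fl, and in those inside it 610.1 and 562 CPM. Portal fibroblast RNA was 818 CPM inside against 231 outside in AEG-1DMAC, and 602 against 178 in AEG-1fl/fl. Class II MHC RNA was 3231 against 1589 CPM and 1844 against 784 CPM. Without the spots of the smooth muscle set, 134 genes were at least 2-fold higher in AEG-1DMAC in place of 297, and 83 in place of 198 in AEG-1fl/fl.

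Between the genotypes, the bile duct spots of AEG-1DMAC and AEG-1fl/fl had close totals of held-out cholangiocyte RNA. The sum was 498 against 470.3 CPM, a log2 ratio of 0.08 (95% interval -0.03 to 0.20), beside a median of 0.15 over the 7671 genes that averaged 10 CPM or more in bile duct spots. The sign of this ratio changed with scaling, to -0.08 with TMM and -0.05 with the 50 most abundant genes left out of the total. Without Cldn3 and Krt8, which hepatocytes also make, it was 0.24, above that interval, an alternative added after the values were seen. Of the 14 measured genes, 7 lay above the median of all genes, and 1 passed 2-fold, Prom1, at 25.2 against 12.4 CPM. In the remaining spots the sum of the full list had a log2 ratio of -0.34 (95% interval -0.38 to -0.30). Mmp7, a matrix metalloprotease of duct epithelium, had 22 UMIs in AEG-1DMAC and 2 in AEG-1fl/fl. Its log2 ratio was 3.77 (95% interval 1.74 to 6.90), and it was picked out after its values were seen.

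The targeted gene was measured at close levels in both libraries. Mtdh (chr15:34082694-34145624 of mm10) was at 79.3 against 69.2 CPM in bile duct spots (log2 ratio 0.20, 95% interval -0.11 to 0.50) and 65.6 against 59.7 CPM in the remaining spots (log2 ratio 0.14). Lyz2, whose promoter drives the Cre, had 2 UMIs in the bile duct spots of AEG-1DMAC and 4 in those of AEG-1fl/fl. The probes measure all cells of a spot, and AEG-1 was deleted only in myeloid cells, so this level does not check the deletion.

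Genes that passed 2-fold between the libraries were more often higher in AEG-1DMAC, by a margin that depended on scaling. Of 7671 genes, 202 (2.63%) were higher by 2-fold or more in the bile duct spots of AEG-1DMAC and 47 (0.613%) lower. In the remaining spots 107 (1.39%) of the same genes were higher and 56 (0.73%) lower, on 43234790 and 47575408 UMIs. The bile duct counts rest on 2218496 and 2747442 UMIs, where counting error alone can carry more genes past 2-fold. The genes were also filtered by their bile duct level, so the counts of the spot sets are not directly comparable. With TMM the counts in bile duct spots were 118 and 77, and with a total that left out the 50 most abundant genes 128 and 68.

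The largest ratios at the ducts were also large in the rest of the section. Gadd45g, a stress-induced growth arrest gene, was at 203 against 10.6 CPM in bile duct spots (log2 ratio 4.26, 95% interval 3.72 to 4.86) and 209.9 against 9.52 CPM in the remaining spots (log2 ratio 4.46). Alas1, the rate-limiting enzyme of heme synthesis, was at 297 against 17.5 CPM in bile duct spots (log2 ratio 4.09, 95% interval 3.66 to 4.54) and 311 against 21.4 CPM in the remaining spots (log2 ratio 3.86). Foxq1, Phlda1 and Lpin1 (a transcription factor, an immediate early protein and a phosphatidate phosphatase) had log2 ratios from 2.49 to 3.55 in bile duct spots and from 2.09 to 3.10 in the remaining spots. Serpina12, the serpin vaspin, was at 163 against 27.7 CPM in bile duct spots. All of these were higher in AEG-1DMAC in both sets of spots. On the lower side, Depp1, Efna1, Lpl (lipoprotein lipase) and Scd1 (stearoyl-CoA desaturase) had log2 ratios from -2.59 to -1.38 in bile duct spots and from -2.15 to -1.64 elsewhere. Both comparisons are of the same pair of sections, and so are not independent.

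**Figure D4:**
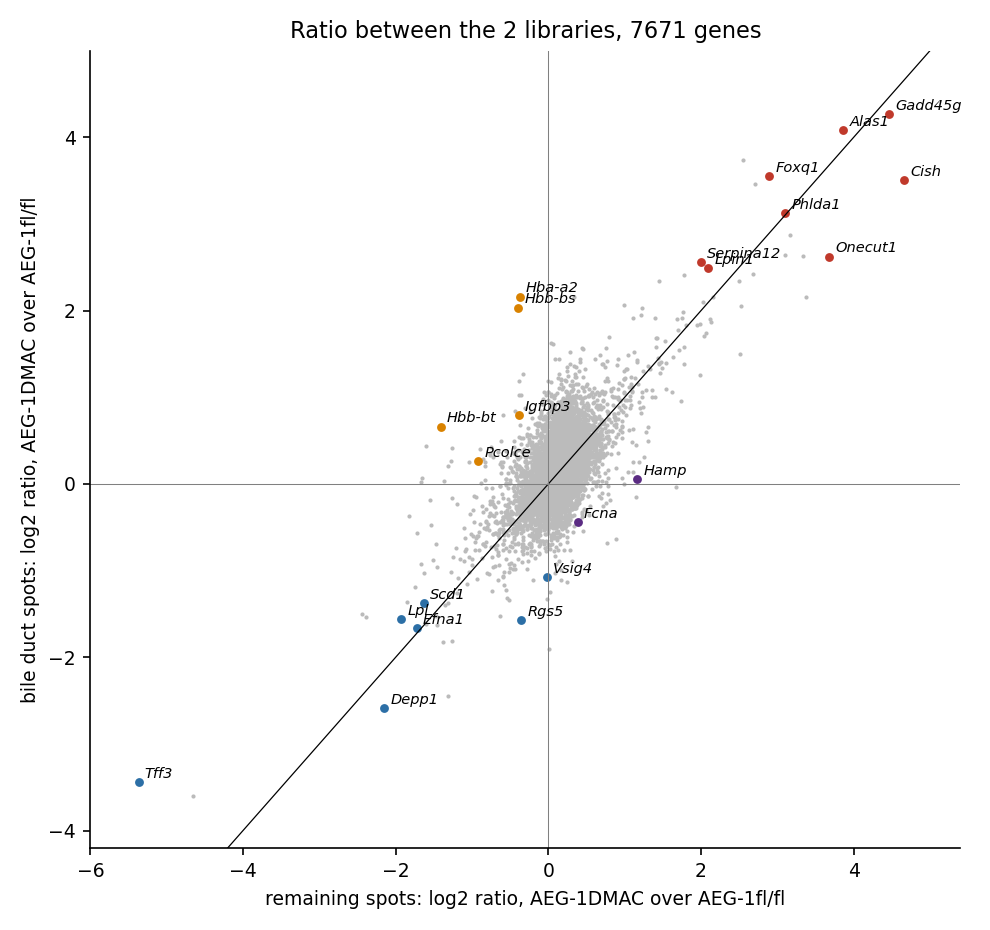
Log2 ratio of CPM, AEG-1DMAC over AEG-1fl/fl, in remaining spots (x) and bile duct spots (y) for 7671 genes, with the line of equality. Named genes are coloured red or blue for the largest ratios in bile duct spots and orange or purple for the largest further differences between the sets of spots. Genes such as Gadd45g, Alas1 and Phlda1 lie near the line, and hemoglobin genes, Hamp, Vsig4 and Rgs5 lie away from it.

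Some genes had another ratio at the ducts than elsewhere. Tff3, trefoil factor 3, a secreted peptide of mucous epithelium, was at 28.4 against 309 CPM in bile duct spots (log2 ratio -3.44, 95% interval -3.84 to -3.07) and 8.65 against 357 CPM in the remaining spots (log2 ratio -5.37). Within AEG-1DMAC it was higher at the ducts, with a log2 ratio of 1.71 (95% interval 1.31 to 2.10), and within AEG-1fl/fl it was not, at -0.21 (95% interval -0.31 to -0.11). The bile duct spots of AEG-1DMAC held 14.4% of the library's Tff3 UMIs in 43 of 107 spots, and those of AEG-1fl/fl 4.75%. Rgs5, a regulator of G protein signalling in pericytes and arterial muscle, was at 30.7 against 91.4 CPM in bile duct spots (log2 ratio -1.58, 95% interval -1.98 to -1.18) and 25.2 against 32.3 CPM in the remaining spots (log2 ratio -0.36). Igfbp3 and Pcolce, an IGF carrier and an enhancer of procollagen processing, had ratios of 0.79 in bile duct spots and -0.39 in the remaining spots, and 0.26 in bile duct spots and -0.92 in the remaining spots. Cish and Onecut1, a STAT5 target and a hepatobiliary transcription factor, were higher in AEG-1DMAC in both sets, and their log2 ratio at the ducts less that elsewhere was -1.15 (95% interval -1.81 to -0.49) and -1.05 (95% interval -1.50 to -0.60). Hamp, the iron hormone hepcidin, was at 399.8 against 385 CPM in bile duct spots (log2 ratio 0.05, 95% interval -0.08 to 0.18) and 622 against 277 CPM in the remaining spots (log2 ratio 1.17).

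Kupffer cell genes were lower at the ducts than in the remaining spots as a whole in AEG-1DMAC. Their direction in AEG-1fl/fl depended on scaling and on the score rank of the spots. The difference between the libraries was not tested. Kupffer cells are the resident macrophages of the sinusoids, and in AEG-1DMAC mice they belong to the lineage in which AEG-1 was deleted. Their 12 listed genes summed to 1092 CPM against 1434 CPM in AEG-1DMAC, a log2 ratio of -0.39 (95% interval -0.45 to -0.33), and to 1442 CPM against 1374 CPM in AEG-1fl/fl, for 0.07 (95% interval 0.02 to 0.12). The smooth muscle spots of AEG-1DMAC outside the bile duct set held 1142 CPM (95% interval 1087 to 1199). Its periportal spots outside that set held 1219 CPM, so the low level was not particular to the ducts. In AEG-1DMAC 0 of 12 genes lay above the median of all genes, and in AEG-1fl/fl 7 of 12. With TMM the sums were -0.65 and -0.12, so the AEG-1fl/fl value changed sign. In the top 1% of spots by score the list sum was 1052 CPM (95% interval 956 to 1156) in AEG-1DMAC. In AEG-1fl/fl it was 1186 CPM (1090 to 1289) there, and these intervals overlapped. In the bile duct spots nearest the limit, ranked 2.5% to 5%, it was 1130 and 1561 CPM. Across bile duct spots the Spearman correlation of the list with the score was -0.13 and -0.35. Per bile duct spot the list ran from 325 to 2419 CPM with a median of 1052 in AEG-1DMAC, and from 459 to 3060 with a median of 1432 in AEG-1fl/fl, so the spots of the libraries overlapped. Vsig4, the complement receptor of Kupffer cells, was at 34.3 against 51.6 CPM and 72.1 against 52.3 CPM. Clec4f, their glycan-binding lectin, was at 133 against 201 CPM and 205 against 190.4 CPM, and Timd4, a receptor for apoptotic cells, at 10.4 against 20.2 CPM and 19.7 against 18.8 CPM. The complement genes C1qa, C1qb and C1qc, which other macrophages share, lay near 0 in AEG-1DMAC, with log2 ratios from -0.03 to 0.13.

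Read between the libraries, the same list was lower in AEG-1DMAC at the ducts, and its ratio over all remaining spots was close to 0. Its summed log2 ratio was -0.40 (95% interval -0.47 to -0.33) in bile duct spots and 0.06 (95% interval 0.05 to 0.08) in the remaining spots, where its sign turned to -0.04 with TMM. The lower level was not confined to the ducts. Smooth muscle spots outside the bile duct set held 1142 CPM of the list in AEG-1DMAC against 1410 CPM in AEG-1fl/fl. Periportal spots outside the bile duct set held 1219 against 1447 CPM of the list. Of 11 genes with at least 40 UMIs in the bile duct spots of both libraries together, 0 lay above the median of all genes at the ducts and 5 in the remaining spots. At the ducts 3 passed 2-fold downwards, Vsig4, Marco and Fabp5, where 0.724% of 8283 genes did. Marco, a scavenger receptor, was at 9.92 against 54.2 CPM in bile duct spots (log2 ratio -2.45, 95% interval -3.17 to -1.80) and 14.1 against 35.0 CPM in the remaining spots (log2 ratio -1.31). Fabp5, a fatty acid carrier, had -1.37 in bile duct spots and -1.86 in the remaining spots. Within each library, the list was also set against the third of remaining spots with the highest zone 1 level. Bile duct spots over those had log2 ratios of -0.35 in AEG-1DMAC and -0.02 in AEG-1fl/fl. Over all remaining spots, without the spots of the smooth muscle set, these within-library ratios were -0.36 and 0.12. Between the libraries, Fcna, a ficolin made by Kupffer cells and not in the list, had -0.44 in bile duct spots and 0.39 in the remaining spots.

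**Figure D5:**
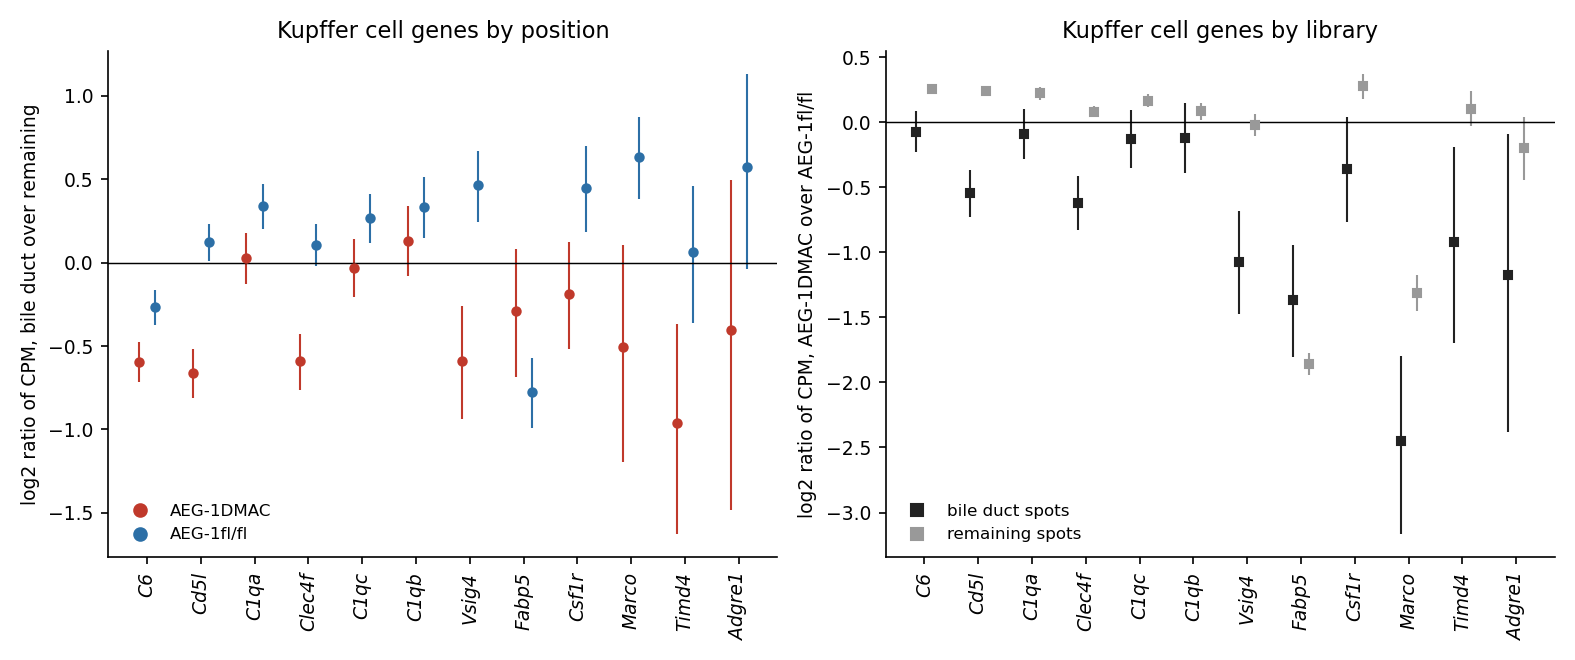
The 12 Kupffer cell genes, in order of UMIs. Left, log2 ratio of bile duct over remaining spots in AEG-1DMAC (red) and AEG-1fl/fl (blue). Right, log2 ratio of AEG-1DMAC over AEG-1fl/fl in bile duct spots (black) and remaining spots (grey), all with 95% counting intervals. In bile duct spots every point on the right lies below 0, while 8 of the 12 remaining-spot points lie above it.

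Class II MHC and portal stroma were higher in AEG-1DMAC both at the ducts and elsewhere. The class II sum had a log2 ratio of 1.04 (95% interval 0.97 to 1.10) in bile duct spots and 1.03 in the remaining spots, and 5 of 7 genes passed 2-fold at the ducts, where 2.84% of 8283 genes did. Portal fibroblast genes had 0.63 (95% interval 0.50 to 0.76) and 0.50 (95% interval 0.41 to 0.58), with 10 of 13 above the median of all genes and 5 past 2-fold at the ducts and 2 past it in the remaining spots, where 1.38% were. Dpt was at 118 against 56.8 CPM in bile duct spots and at 10.0 against 5.02 CPM in the remaining spots. T and NK cell genes had 1.30 (95% interval 0.85 to 1.75) and 0.88 (95% interval 0.72 to 1.04), on few UMIs. Zone 3 sums were higher in AEG-1DMAC in both, at 0.87 (95% interval 0.82 to 0.92) and 1.23 (95% interval 1.22 to 1.24). Cyp2e1 holds most of the sum, at 2709 of 3353 CPM at the ducts of AEG-1DMAC. Over the 6 genes measured the median was 0.40 at the ducts, where 4 lay above the median of all genes and 1, Cyp2e1, passed 2-fold, and 0.97 elsewhere, where 6 lay above it and 3 passed 2-fold.

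Hemoglobin genes had the 3 largest differences between the genotype ratio at the ducts and that elsewhere. The erythroid list stood at 3337 CPM against 897 CPM in AEG-1DMAC and 971 CPM against 1227 CPM in AEG-1fl/fl. Hba-a2 and Hbb-bs, whose near-identical gene copies leave their separate values uncertain, were at 1001 against 243 CPM and 2130 against 521 CPM in AEG-1DMAC. In that library, bile duct spots of the smooth muscle set held 6350 CPM and the others 1165 CPM. Smooth muscle spots outside the bile duct set held 8207 CPM. Of the list's bile duct UMIs, 15% came from 1 spot. The genotype ratio of the list at the ducts was 1.78, and 0.07 without the spots of the smooth muscle set. The part of blood in other differences at the ducts was not tested.

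Lists of lipid synthesis and of the interferon response had unlike ratios at the ducts of the libraries. Lipogenesis genes summed to 1729 CPM against 1638 CPM in AEG-1DMAC and 2841 CPM against 3589 CPM in AEG-1fl/fl, and Scd1 holds most of the sum in AEG-1fl/fl. Cholesterol synthesis genes had 9 of 17 above the median of all genes in AEG-1DMAC and 2 of 17 in AEG-1fl/fl, 0 past 2-fold in either, with sums of 0.17 in AEG-1DMAC and -0.20 in AEG-1fl/fl. With TMM the AEG-1DMAC sums of the cholesterol and lipogenesis lists turned to -0.09 and -0.18. Interferon-response genes had sums of -0.02 in AEG-1DMAC and 0.13 in AEG-1fl/fl, and the latter turned to -0.06 with TMM. Past 2-fold were 0 of 10 in AEG-1DMAC and 4 of 10 in AEG-1fl/fl, Gbp2, Rsad2, Ifit3 and Ifit1. Of all genes 10.7% and 7.15% passed, so 0 of 10 lies near the background. Rsad2, viperin, was at 16.7 against 17.7 CPM and 36.0 against 15.8 CPM. The difference between the libraries was not tested for any of these lists.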

How the data were processed

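Liver sections of 1 AEG-1DMAC and 1 AEG-1fl/fl mouse were profiled by probe-based 10x Visium on fixed, paraffin-embedded tissue. The deposited values are raw UMI counts per gene and spot, which the authors made with Space Ranger 2.0.1 on mm10, with barcodes under tissue kept. The submitters' processing notes also name Seurat 4.3.0. No normalization had been applied to the deposited counts.

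Spots with at most 50000 UMIs and 100 to 7000 genes were kept, which removed 9 of 2149 spots in AEG-1DMAC and 3 of 2543 in AEG-1fl/fl. No doublet caller was run, since a spot can hold several cells. UMIs were summed over the bile duct spots and over the remaining spots of each library and given as counts per 1000000 UMIs (CPM). Log2 ratios of CPM carry exact conditional binomial 95% intervals, CPM exact Poisson intervals and shares exact binomial intervals. All of them cover counting error only. Higher or lower past a ratio of 2 was counted over genes averaging 10 CPM or more, and list members with at least 40 UMIs. The computation of ratios and intervals was checked on simulated data. Coordinates are those of mm10 gene models matched by Ensembl ID.

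The members and gene lists were chosen with earlier results of these data known. Of 398 listed genes, 10 were not analysed here. Genes named were the 15 highest and 6 lowest of the profile, the 8 highest and 8 lowest genotype ratios and the 6 largest differences between spot sets in each direction at 50 CPM or more, up to 4 members of each list with the most UMIs, its extremes, and Mtdh, Lyz2 and Tff3. Some genes that this rule names are not reported here. Further genes were chosen after their values were seen. Alternatives covered the share of spots, the score genes, scaling, depth, reference spots and filters. The list without Cldn3 and Krt8, and the other lists under other members, reference spots and scalings, were added after the data were seen. Python 3.11.15 with numpy 2.4.6, scipy 1.17.1, pandas 2.3.3 and matplotlib 3.10.9 was used, and R 4.3.3 with edgeR 4.0.16 for TMM factors. Spot positions were not used here.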

Additional observations from a re-analysis of the deposited data

Results flagged for a closer look

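Several lists and genes lay on opposite sides of 0 in the libraries when bile duct spots were set against the remaining spots. With 1 library a genotype none of these differences was tested. The Kupffer cell sum had a log2 ratio of -0.39 in AEG-1DMAC and 0.07 in AEG-1fl/fl, the latter turning to -0.12 with TMM scaling. Vsig4 had -0.59 and 0.46, and Fcna -0.62 and 0.21. The hepatocyte sum had 0.065 and -0.094, the lipogenesis sum 0.078 and -0.34, and the cholesterol synthesis sum 0.17 and -0.20, where TMM turned each AEG-1DMAC value below 0. Hamp had -0.64 in AEG-1DMAC and 0.48 in AEG-1fl/fl. Tff3 had 1.71 and -0.21.

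The erythroid sum had 1.89 in AEG-1DMAC and -0.34 in AEG-1fl/fl, Hba-a2 2.04 and -0.50, and Hbb-bs 2.03 and -0.40. Without the spots of the smooth muscle set the erythroid sums were 0.38 and -0.15.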

How the results depend on the processing

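No paired analysis was possible because each genotype had 1 library. With 1 section a genotype, mouse, section, capture area and genotype cannot be told apart, and the depth of the bile duct spots limits genes under about 10 CPM to few UMIs. The counts of genes past 2-fold moved with the choice of spots, the minimum level and scaling. For genes named by the ratio rules, 210 of 210 recomputed values kept their sign under both other scalings and the mean over spots. These genes were named for their large ratios, and the scalings shift a log2 ratio by at most 0.255. Their signs could therefore not change with scaling, and the kept signs are no check of it.

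Genes higher in bile duct spots of AEG-1DMAC (297) numbered 648 with the top 2.5% of spots, 117 with the top 10%, 194 with Spp1 left out of the score, 134 without the smooth muscle set, 484 with spots thinned to 5000 UMIs, 1686 at a minimum of 1 CPM, 39 at 50 CPM and 795 past 1.5-fold. In the same order those of AEG-1fl/fl (198) numbered 463, 80, 125, 83, 347, 1215, 19 and 597. Genes lower in AEG-1DMAC (40) numbered 11 with the top 10%, 10 without Spp1, 73 with TMM, 118 thinned, 3 against the third of remaining spots with the highest zone 1 level, 158 at 1 CPM, 18 at 50 CPM and 135 past 1.5-fold, and those in AEG-1fl/fl (18) numbered 1, 3, 35, 105, 0, 132, 9 and 89. Thinning leaves few UMIs a gene.

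Genes higher in AEG-1DMAC than AEG-1fl/fl at the ducts (202) numbered 425 with the top 2.5%, 103 with the top 10%, 118 with TMM, 128 without the 50 most abundant genes, 615 thinned, 959 at 1 CPM, 49 at 50 CPM and 883 past 1.5-fold. Genes lower (47) numbered 86 and 30 with the top 2.5% and 10%, 74 without the smooth muscle set, 77 with TMM, 210 thinned, 403 at 1 CPM, 10 at 50 CPM and 185 past 1.5-fold.

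The held-out cholangiocyte log2 ratio of AEG-1DMAC (1.45) was 1.87 with the top 2.5%, 1.04 with the top 10%, 1.20 without Spp1, 1.20 without the smooth muscle set, 1.20 with TMM and 2.89 without Cldn3 and Krt8, and that of AEG-1fl/fl (1.03) was 1.41, 0.69, 0.79, 0.90, 0.84 and 2.10. The genotype ratio of that list (0.08) was -0.042 without the smooth muscle set, -0.080 with TMM, -0.048 without the 50 most abundant genes and 0.24 without Cldn3 and Krt8. The share of bile duct spots in the smooth muscle set (40.2%) was 51.9%, 24.8% and 28.0% in AEG-1DMAC with the top 2.5%, the top 10% and without Spp1, and in AEG-1fl/fl (33.9%) 24.4% and 23.6% with the latter pair. Against the third of remaining spots with the highest zone 1 level the zone 3 sum of AEG-1fl/fl turned from -1.12 to 0.17. The cause of these shifts was not tested.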

Other observations

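Genes of the circadian clock were close to the median gene at the ducts of each library, with summed log2 ratios of 0.31 in AEG-1DMAC and 0.20 in AEG-1fl/fl, and 10 of 13 lay above the median of all genes in each. Between the libraries 5 of 11 clock genes were at least 2-fold higher in AEG-1DMAC at the ducts and 6 of 11 in the remaining spots, with sums of 0.68 (95% interval 0.53 to 0.82) and 0.56 (95% interval 0.52 to 0.60), beside 2.84% and 1.38% of 8283 genes. Immediate early genes had sums at the ducts of 0.26 in AEG-1DMAC and -0.03 in AEG-1fl/fl. Fatty acid oxidation genes lay below the median gene in 14 of 15 cases in each library, with sums of -0.24 in AEG-1DMAC and -0.24 in AEG-1fl/fl.

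Genes of hepatic stellate cells had sums of -0.07 in AEG-1DMAC and 0.14 in AEG-1fl/fl, and the AEG-1fl/fl value turned to -0.05 with TMM. Genes of gut, pancreas and fat, organs that a section could carry along, had -0.53 in AEG-1DMAC and -0.46 in AEG-1fl/fl. Complement genes, mostly made by hepatocytes, had 0.04 in AEG-1DMAC and 0.06 in AEG-1fl/fl, with C7 as the one member past 2-fold. The nerve list held 10 and 11 UMIs and the neutrophil list 17 and 50 in the bile duct spots, too few to compare.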
